A study of Drosophila melanogaster with 6 samples.

Results

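The 10 genes described here encode the ligands of the epidermal growth factor receptor (EGFR), the proteins that process those ligands, and the inhibitors that restrain the pathway in *D. melanogaster*. They were chosen by symbol, with earlier results of these data known. These are the ligand genes spi, Krn and vn, the processing and trafficking genes rho, ru and S, and the inhibitor genes aos and sty. The nuclear regulator genes aop and edl complete the 10. All 10 symbols matched a row of the deposited table, which holds 17649 genes. Whole eyes of Canton S, a wild-type strain, were dissected from pupae at 40 h APF (hours after puparium formation) and from pupae at 21 h APF, and their RNA was sequenced. RNA was prepared from pools of many eyes in 3 biological replicates per stage, and no genotype or treatment other than age separated the stages. At 21 h APF the lattice of the eye is still being patterned and excess cells are being removed, and at 40 h APF the lattice is established.

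Expression is given as FPKM, the number of sequenced fragments relative to transcript length and to the size of the library, and the deposited values hold 1 FPKM per gene and stage, in which the replicates are pooled. These pooled values carry no SD, so no test was run here, and no difference below was set against the spread between replicates. "Higher" and "lower" describe the pooled values only. The read depth behind each value is not in the table, and no interval or detection limit is given. Ratios are log2 of FPKM + 0.1 at 40 h over FPKM + 0.1 at 21 h APF. They are set against the 9828 genes with at least 1 FPKM at one stage or the other, a minimum that all 10 genes reached at both stages.

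Spi, the principal activating ligand of the Drosophila EGFR, is made as a precursor tethered to the membrane. The cargo receptor Star carries the precursor out of the endoplasmic reticulum, and proteases of the rhomboid family, Rhomboid and Roughoid among them, cut it within the membrane to release the active ligand. Keren, a close relative of Spi, is likewise cut by rhomboid proteases, whereas Vein is secreted without such cleavage. In the eye, successive rounds of Spi signaling recruit photoreceptors, cone cells and pigment cells, and the pathway keeps lattice cells alive. Signaling also induces its own inhibitors: Argos binds Spi outside the cell, and Sprouty acts inside it. The repressor Yan, encoded by aop, competes with the activator Pointed for target genes until it is phosphorylated.

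Among the 10 genes, the protease genes differed most between the stages. Both ru and rho were lower at 40 h APF by more than 2-fold. By contrast, the RNA of spi, which encodes the precursor that the encoded proteases cut, differed little between the stages. It was the most abundant of the 10 at both. In all, 7 of the 10 genes were lower and 3 were higher at 40 h APF, where 50.9% of the 9828 genes were lower and 49.1% were higher. Being at least 2-fold lower was seen for 2 of the 10 genes, ru and rho, and for 10.7% of the 9828 genes. None of the 10 was at least 2-fold higher, compared with 14.8% of all genes. The median log2 ratio of the 10 genes was -0.31, against -0.017 over the 9828 genes, and it ranged from -1.97 for ru to 0.46 for Krn. At a milder threshold of 1.5-fold, 4 of the 10 genes were lower (ru, rho, aos and vn) and none was higher, where 18.7% of all genes were lower and 22.6% were higher. The remaining 6 lay within 1.5-fold in either direction, as 58.8% of all genes did.

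**Figure D1:**
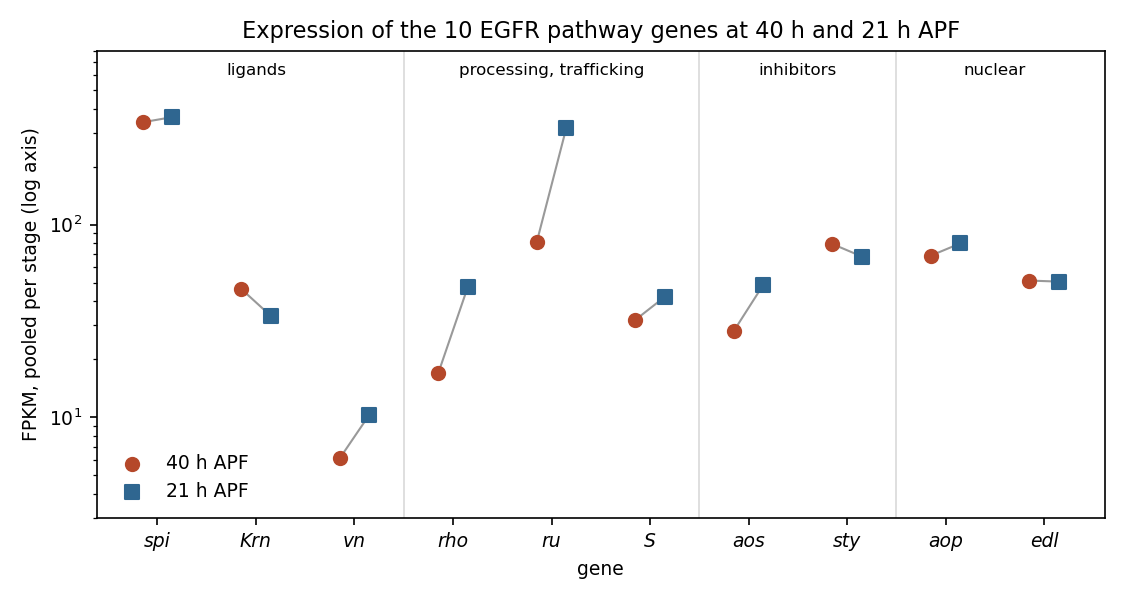
Pooled FPKM (log axis) of each of the 10 genes at 40 h APF (circles) and 21 h APF (squares), with a line joining both values of a gene and no error bars because the values are pooled. The steepest lines are those of ru, at 81.1 FPKM at 40 h, against 317 FPKM at 21 h APF, and rho, at 16.9 FPKM at 40 h, against 47.4 FPKM at 21 h APF.

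Of the ligand genes, spi (FBgn0005672, on chromosome 2L from 19567900 to 19577315 of BDGP6, minus strand) had 340.1 FPKM at 40 h, compared with 362 FPKM at 21 h APF. Its log2 ratio was -0.089, near the middle of all genes, of which 45.8% had a lower one. At both stages spi stood high among all genes, since 97.5% of the 9828 genes had a lower FPKM at 40 h and 98.0% at 21 h APF. There are 3 small genes for microRNAs that lie within the span of spi and share no exon bases with it.

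Krn (FBgn0052179, on chromosome 3L from 17649562 to 17654280, minus strand), which encodes Keren, had 46.4 FPKM at 40 h, against 33.6 FPKM at 21 h APF. It was 1.38-fold higher at 40 h APF, a log2 ratio of 0.46, the largest of the 10 genes. Of its exon bases, 21.3% are shared with Ndfip on the same strand, which itself had 51.8 FPKM at 40 h, against 47.4 FPKM at 21 h APF, so the reads of Krn and Ndfip may not be fully separated. The part of Ndfip in the value of Krn was not tested.

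The gene vn (FBgn0003984, on chromosome 3L from 5813338 to 5845664, minus strand), which encodes the neuregulin-like ligand Vein, was the least abundant of the 10 at both stages, with 6.10 FPKM at 40 h, compared with 10.3 FPKM at 21 h APF. It was 1.68-fold lower at 40 h APF, a log2 ratio of -0.74, and 14.7% of all genes had a lower ratio. The pooled values of the ligand genes therefore lay in different directions: vn was lower, Krn was higher, and spi was close to its earlier level. Because spi outweighed the other two, the sum over the 3 ligand genes was 393 FPKM at 40 h, against 406 FPKM at 21 h APF. Of that sum, spi made up 86.6% at 40 h and 89.2% at 21 h APF, Krn 11.8% at 40 h and 8.29% at 21 h APF, and vn 1.55% at 40 h and 2.53% at 21 h APF.

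The protease gene ru (FBgn0003295, on chromosome 3L from 1370628 to 1387437, plus strand), which encodes Roughoid, also called Rhomboid-3, had 81.1 FPKM at 40 h, against 317 FPKM at 21 h APF. Its level was 3.91-fold lower at 40 h APF, a log2 ratio of -1.97, the lowest of the 10 genes, and 4.76% of the 9828 genes had a lower ratio. At both stages ru was second only to spi among the 10 genes. At 21 h APF its level lay close to that of spi, with a ratio of ru to spi of 0.878, whereas at 40 h APF this ratio was 0.239.

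The founding member of the family, rho (FBgn0004635, on chromosome 3L from 1463811 to 1468944, plus strand), had 16.9 FPKM at 40 h, against 47.4 FPKM at 21 h APF. It was 2.81-fold lower at 40 h APF, a log2 ratio of -1.48, and 6.98% of all genes had a lower one. Among the 10 genes rho ranked 9 at 40 h and 7 at 21 h APF. Thus ru was the more abundant of the pair at both stages, by 4.80-fold at 40 h and 6.70-fold at 21 h APF. Added together, ru and rho came to 98.0 FPKM at 40 h, compared with 365 FPKM at 21 h APF, or 0.288 of the level of spi at 40 h and 1.01 times that level at 21 h APF.

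**Figure D2:**
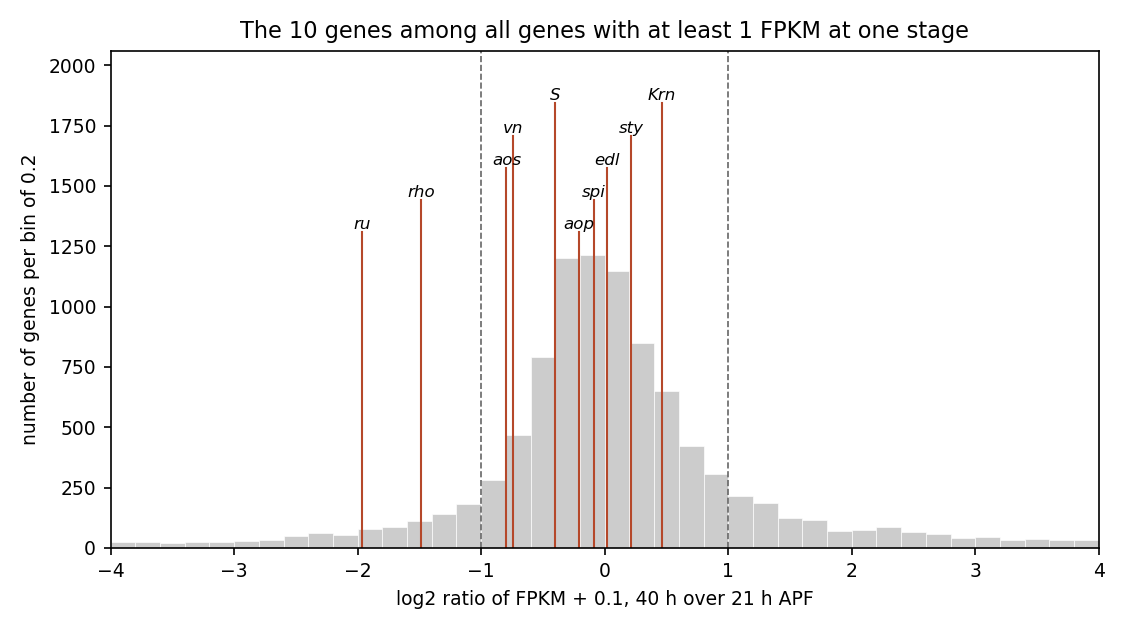
Number of genes (y axis) in bins of 0.2 of the log2 ratio of 40 h over 21 h APF (x axis) for the 9828 genes with at least 1 FPKM at one stage, with a line at the ratio of each of the 10 genes and dashed lines at 2-fold. The lines of ru (-1.97) and rho (-1.48) lie left of the dashed line for 2-fold lower and the other 8 lie between the dashed lines; 119 genes fall below the axis and 244 above it.

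Both ru and rho are nested within Ptp61F, a gene for a protein tyrosine phosphatase that runs on the opposite strand from 1342493 to 1475257 of chromosome 3L, and neither shares exon bases with it. The table treats this stretch as 1 locus of 20 genes. The part of reads from Ptp61F in the values of ru and rho was not tested. Ptp61F had 73.1 FPKM at 40 h, against 58.5 FPKM at 21 h APF, so that the host gene was higher at the stage where both nested genes were lower. The end of ru and the start of rho are 76.4 kb apart. Between them the table holds 5 protein-coding genes, all under 0.1 FPKM at both stages, along with 6 tRNA genes and the noncoding RNA gene CR44842. The next rhomboid gene, stet (FBgn0020248), which encodes a protease known for its role in the germ line, lies 6.49 kb beyond rho on the minus strand. It had 12.8 FPKM at 40 h, against 10.8 FPKM at 21 h APF, a log2 ratio of 0.24. Within this stretch of 3L the rhomboid genes ru and rho were therefore lower at 40 h APF, and their neighbour stet was slightly higher.

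**Figure D3:**
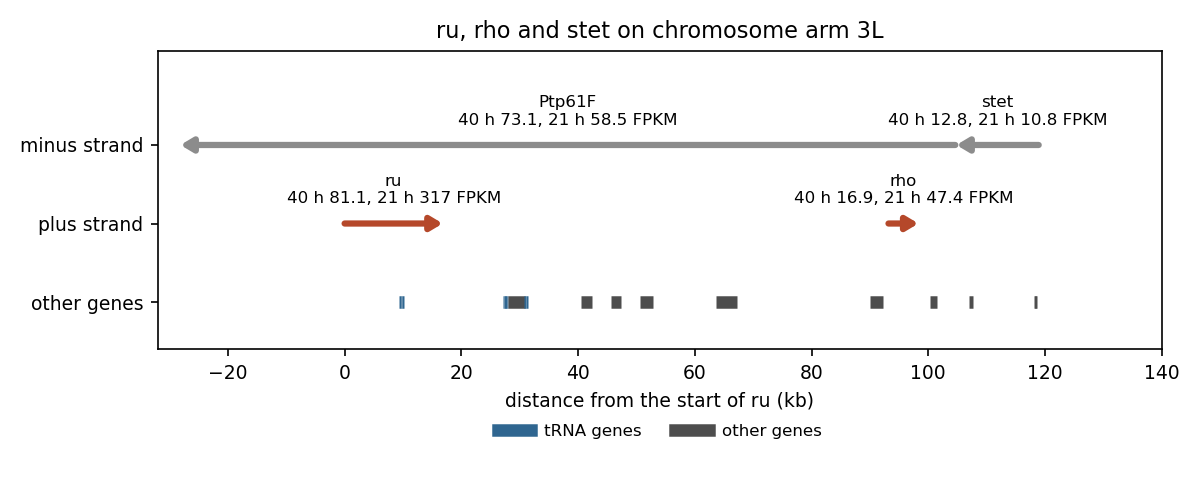
Map of ru, rho, stet and the genes around them on 3L, drawn to scale as distance in kb from the start of ru (x axis), with arrows in the direction of transcription on the plus and minus strands and the pooled FPKM at 40 h and 21 h APF beside each named gene. Arrows for ru and rho lie inside the span of Ptp61F, which points the other way and had 73.1 FPKM at 40 h, compared with 58.5 FPKM at 21 h APF; bars in the lowest row mark tRNA and other genes.

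No other member of the rhomboid family was as much as 1.5-fold lower at 40 h APF. The gene rho-4 (FBgn0030318), for another intramembrane protease, had 45.7 FPKM at 40 h, against 55.5 FPKM at 21 h APF. Its relative rho-5 (FBgn0041723), for an iRhom, a family member without protease activity, had 32.8 FPKM at 40 h, against 24.8 FPKM at 21 h APF, and rho-7 (FBgn0033672), for a mitochondrial protease, had 23.4 FPKM at 40 h, compared with 22.4 FPKM at 21 h APF. The exception was rho-6 (FBgn0032415), with 16.2 FPKM at 40 h, against 0.0346 FPKM at 21 h APF. Its log2 ratio was 6.92 with a pseudocount of 0.1 FPKM and 4.06 with 1 FPKM, because the added constant sets the size of a ratio whose lower value is near 0. At 40 h APF the level of rho-6 was 0.961 of that of rho. Over the 7 rhomboid genes the summed FPKM was 229 at 40 h and 478 at 21 h APF, and the share of ru and rho in it was 42.8% at 40 h and 76.3% at 21 h APF.

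**Figure D4:**
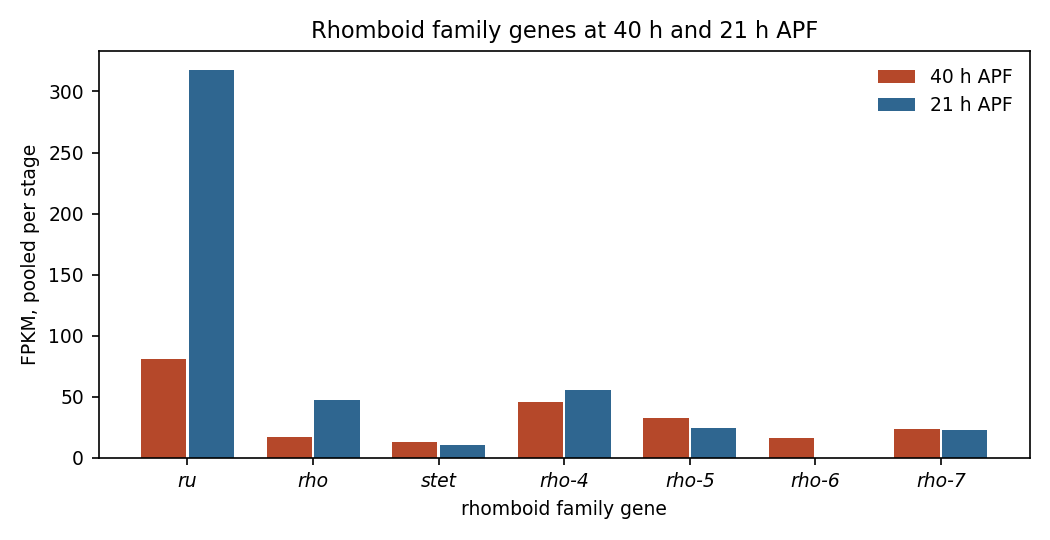
Pooled FPKM (y axis, from 0) of the 7 rhomboid family genes at 40 h APF (left bar of each pair) and 21 h APF (right bar), without error bars because the values are pooled. The pair for ru has the greatest difference, with 81.1 FPKM at 40 h, against 317 FPKM at 21 h APF, and the 21 h bar of rho-6, at 0.0346 FPKM, is too low to be seen.

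S (FBgn0003310, on chromosome 2L from 1049674 to 1077815, minus strand), which encodes the cargo receptor Star, had 32.0 FPKM at 40 h, compared with 42.2 FPKM at 21 h APF. It was 1.32-fold lower at 40 h APF, a log2 ratio of -0.40, with 26.5% of all genes below it. All 3 processing and trafficking genes were thus lower at 40 h APF, where 50.9% of the 9828 genes were. S was lower by the least and lay within 1.5-fold. Of the 10 further genes for ligands and processing described below, 6 were higher and 4 were lower. The level of S was 0.0940 of that of spi at 40 h and 0.117 at 21 h APF.

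Argos, the secreted antagonist, is encoded by aos (FBgn0004569, on chromosome 3L from 16470386 to 16483650, minus strand), which had 28.0 FPKM at 40 h, against 48.7 FPKM at 21 h APF. It was 1.74-fold lower at 40 h APF, a log2 ratio of -0.80, and 13.7% of all genes had a lower one. Relative to spi, whose product Argos binds, aos stood at 0.0824 at 40 h and 0.135 at 21 h APF. The gene lies in a stretch that the table treats as 1 locus of 6 genes, and it shares exon bases with none of them.

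The intracellular inhibitor Sprouty is encoded by sty (FBgn0014388, on chromosome 3L from 3401153 to 3424935, minus strand), which had 79.3 FPKM at 40 h, against 68.3 FPKM at 21 h APF. It was 1.16-fold higher at 40 h APF, a log2 ratio of 0.22, and it ranked 3 among the 10 genes at 40 h and 4 at 21 h APF. Hence the inhibitor that acts outside the cell was lower at 40 h APF while the one inside it was slightly higher, and the ratio of sty to aos was 2.83 at 40 h and 1.40 at 21 h APF. Against the receptor gene Egfr, which had 32.9 FPKM at 40 h, compared with 62.1 FPKM at 21 h APF, sty stood at 2.41 at 40 h and 1.10 at 21 h APF. The ratio of spi to Egfr was 10.3 at 40 h and 5.83 at 21 h APF, since Egfr was lower at 40 h APF by more than spi was.

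The gene aop (FBgn0000097, on chromosome 2L from 2156484 to 2178754, minus strand), which encodes the ETS repressor Yan, had 69.0 FPKM at 40 h, against 79.95 FPKM at 21 h APF. Its log2 ratio was -0.21, with 37.8% of all genes below it. Of its exon bases, 5.63% are shared with CG15382 on the opposite strand, a gene with 7.71 FPKM at 40 h, against 9.36 FPKM at 21 h APF. The gene edl (FBgn0023214, on chromosome 2R from 18667527 to 18673536, minus strand) encodes a small protein, also called Mae, that binds Yan through its Pointed domain and relieves its repression. Its level was all but the same at both stages, with 51.2 FPKM at 40 h, compared with 50.6 FPKM at 21 h APF, a log2 ratio of 0.018.

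Neither aop nor edl differed between the stages by as much as 1.2-fold, whereas pnt, which encodes the activator Pointed, had 14.6 FPKM at 40 h, against 31.1 FPKM at 21 h APF. The ratio of aop to pnt was accordingly 4.73 at 40 h and 2.57 at 21 h APF. The ratio of edl to aop was 0.742 at 40 h and 0.633 at 21 h APF, a smaller difference. These are ratios of RNA levels over the whole eye, and they do not give the proportions within any one cell type.

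By level, the order at 40 h APF was spi, ru, sty, aop, edl, Krn, S, aos, rho and vn. At 21 h APF it was spi, ru, aop, sty, edl, aos, rho, S, Krn and vn. The genes at both ends of the order and edl at its middle kept their places, and the greatest shift was that of Krn, which ranked 6 at 40 h and 9 at 21 h APF. Without replicate values it cannot be said which neighbours in either order differ beyond their spread. At 21 h APF the genes from edl to S all lay between 42.2 and 50.6 FPKM, so their order rests on small differences. In total the 10 genes came to 750.2 FPKM at 40 h, against 1060.2 FPKM at 21 h APF, and ru alone was lower by 236 FPKM. The median of the 10 levels was 48.8 FPKM at 40 h, compared with 49.7 FPKM at 21 h APF, against 16.8 FPKM at 40 h, against 16.2 FPKM at 21 h APF over the 9828 genes.

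Other genes of the pathway were grouped by role. Among 10 further genes for ligands and processing, 1 was at least 2-fold higher, rho-6, and none was at least 2-fold lower. Over all genes these shares were 14.8% and 10.7%. The median log2 ratio of the list was 0.11. The ligand gene grk, known for its action in the ovary, had 5.64 FPKM at 40 h, against 7.67 FPKM at 21 h APF. The gene rasp, which encodes the acyltransferase that palmitoylates Spi, had 10.2 FPKM at 40 h, compared with 17.4 FPKM at 21 h APF, a log2 ratio of -0.77. The gene cnir, a relative of the cornichon gene cni for a cargo receptor, had 59.7 FPKM at 40 h, against 31.5 FPKM at 21 h APF, a log2 ratio of 0.92.

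From the receptor to MAP kinase, 10 of 12 genes were lower at 40 h APF, where 50.9% of all genes were, and none was at least 2-fold lower, compared with 10.7% of all genes. This list was chosen with earlier results of these data known, so the count is not independent of them. The median log2 ratio was -0.44. The lowest ratios were -0.91 for Egfr and -0.87 for Raf, which encodes the kinase that Ras activates. The gene rl, which encodes the MAP kinase itself, had 97.2 FPKM at 40 h, against 97.1 FPKM at 21 h APF. The gene csw, which encodes a phosphatase that transmits receptor signals, had the highest ratio, a log2 ratio of 0.32, with 65.4 FPKM at 40 h, compared with 52.3 FPKM at 21 h APF.

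Among 11 other negative regulators, 5 were higher and 6 were lower at 40 h APF, compared with 49.1% and 50.9% of all genes, with a median log2 ratio of -0.11. The gene fred, for a cell adhesion protein related to Echinoid, was the one at least 2-fold higher, where 14.8% of all genes were. It had 20.9 FPKM at 40 h, against 4.24 FPKM at 21 h APF. None of the list was at least 2-fold lower, compared with 10.7% of all genes. RasGAP1, listed by its older name Gap1 and encoding a protein that switches Ras off, had 29.0 FPKM at 40 h, against 46.1 FPKM at 21 h APF, the lowest ratio of this list at -0.67. The gene kek1, for a transmembrane inhibitor induced by EGFR signaling, had 49.7 FPKM at 40 h, compared with 54.5 FPKM at 21 h APF. Spred, for a relative of Sprouty, had 47.3 FPKM at 40 h, against 35.6 FPKM at 21 h APF, in the same direction as sty. The gene Mkp3, for a MAP kinase phosphatase, had 42.3 FPKM at 40 h, against 32.0 FPKM at 21 h APF.

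Of 10 transcription factor and target genes, 7 were lower at 40 h APF, where 50.9% of all genes were. Only pnt, 1 of the 10, was at least 2-fold lower, close to the 10.7% of all genes, and the median log2 ratio was -0.57. The repressor gene cic, whose product is inactivated by MAP kinase, had 45.2 FPKM at 40 h, compared with 45.1 FPKM at 21 h APF. The gene sv, needed for cone cell fate, had 35.2 FPKM at 40 h, against 56.9 FPKM at 21 h APF. Of 9 genes with an ETS or Pointed domain, which include aop, edl and pnt, 7 reached 1 FPKM. Within this family, the ecdysone-induced gene Eip74EF, with 119 FPKM at 40 h, against 44.1 FPKM at 21 h APF, and Ets98B, with 23.6 FPKM at 40 h, compared with 11.5 FPKM at 21 h APF, were at least 2-fold higher, compared with 14.8% of all genes. With a pseudocount of 1 FPKM the log2 ratio of Ets98B was 0.98, just short of 2-fold.

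**Figure D5:**
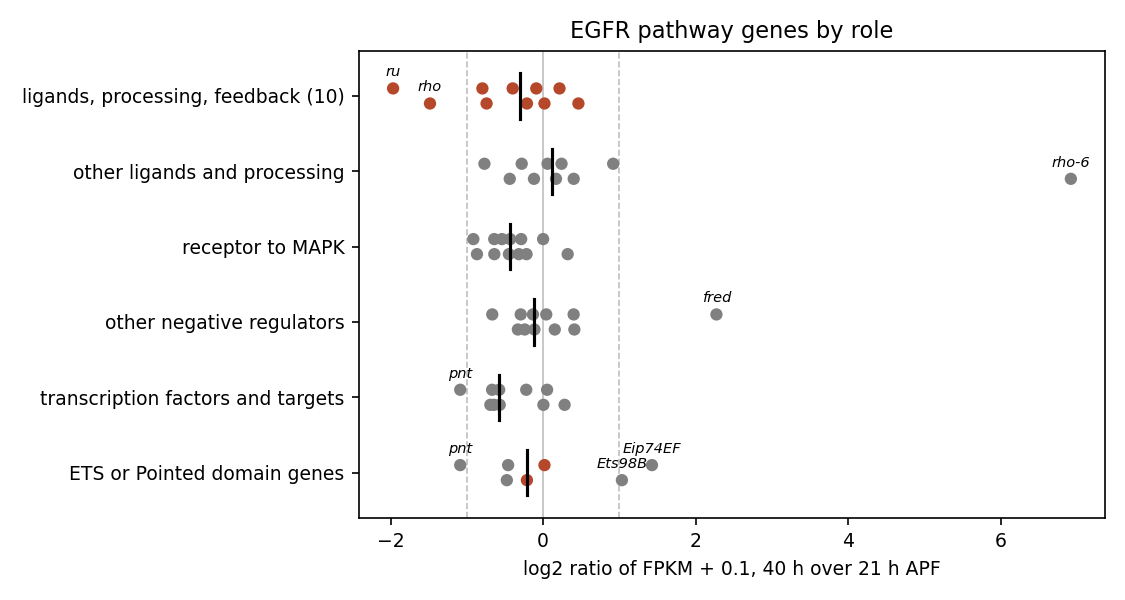
Log2 ratio of 40 h over 21 h APF (x axis) of each gene with at least 1 FPKM at one stage, by role (rows), with the 10 genes in red, other genes in grey, a black bar at the median of each row and dashed lines at 2-fold. Each gene at or beyond 2-fold is named, from ru at -1.97 to rho-6 at 6.92, and 10 of the 12 genes from the receptor to MAP kinase lie left of 0.

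The genes whose levels at the 2 stages lay closest to those of a member were found by Euclidean distance in log2(FPKM + 0.1). With only 2 values per gene, such nearness is common and describes levels alone. For aos they were hid, with 28.1 FPKM at 40 h, against 49.8 FPKM at 21 h APF at a distance of 0.032, CG15201 at 0.056 and Sidpn at 0.059. For rho they were peb, with 16.5 FPKM at 40 h, against 47.5 FPKM at 21 h APF at a distance of 0.032, CG7860 at 0.065 and ec at 0.081.

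The samples were whole eyes, so in these values fewer cells of a type and less RNA per cell cannot be told apart. The paper describes a set number of photoreceptors and of cone cells in each unit of the eye. It describes excess lattice cells as being removed at 21 h APF, a loss that has ceased by 40 h APF. The eye genes so, eya, gl and ey were present, at 27.5 to 136 FPKM at 40 h and 36.8 to 235 FPKM at 21 h APF, and all 4 were lower at 40 h APF. Of the 3 genes listed as photoreceptor markers, chp was lower, with 164 FPKM at 40 h, compared with 369.8 FPKM at 21 h APF. So was lz, while the neuronal gene elav had 89.6 FPKM at 40 h, against 84.9 FPKM at 21 h APF. The 3 summed to 280 FPKM at 40 h, against 494 FPKM at 21 h APF, and chp made up most of that difference. All 3 cone cell markers (ct, sv and pros) were lower too, and their sum was 82.0 FPKM at 40 h, compared with 119 FPKM at 21 h APF. The genes lz, sv and pros were also in the list of transcription factor and target genes above. The part of cell make-up in the lower levels of ru, rho and aos was not tested. The glial genes repo and moody summed to 97.0 FPKM at 40 h, against 96.0 FPKM at 21 h APF, so glial transcripts were present at both stages. Markers of hemocytes and trachea were each under 1 FPKM at both stages, with He listed at 0. Of the 4 muscle markers, Mlc2 had 3.43 FPKM at 40 h, against 4.03 FPKM at 21 h APF, and Mhc, Tm2 and up were higher at 40 h APF, at 0.794 to 1.72 FPKM at 40 h, against 0.0214 to 0.192 FPKM at 21 h APF. The muscle markers summed to 7.55 FPKM at 40 h, against 4.33 FPKM at 21 h APF. The 3 fat body markers summed to 29.2 FPKM at 40 h, compared with 44.6 FPKM at 21 h APF. Of these, Lsp2 and Fbp1 were lower at 40 h APF, while apolpp had 9.33 FPKM at 40 h, against 8.19 FPKM at 21 h APF. The 3 markers of neurons with other transmitters summed to 47.5 FPKM at 40 h, against 16.6 FPKM at 21 h APF. VAChT and VGlut made up most of that difference, while Gad1 had 1.51 FPKM at 40 h, against 1.38 FPKM at 21 h APF.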

How the data were processed

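Pupal eyes at 40 and 21 h APF were sequenced in 6 libraries. The authors aligned paired-end reads with bowtie2 to BDGP6 with gene models of Ensembl release 93, and quantified them in Cuffdiff, normalizing geometrically and correcting for sequence bias; tool versions and strand assignment are not given in the sources used here. The deposited FPKM are 1 value per gene and stage, pooled by Cuffdiff over the replicates. Further columns of the table hold the authors' fold changes, test scores, p-values and q-values and were not used.

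Members were matched by symbol. Ratios used a pseudocount of 0.1 FPKM, and a gene entered counts at 1 FPKM or more at the higher stage. Positions and shared exon bases, on either strand, came from Ensembl release 115 on the same assembly, which holds 17512 of the table's identifiers; the annotated spans of all 10 genes lay within their deposited loci. The genes named are the 10 members, genes of fixed pathway lists by size of ratio or role, the 3 nearest genes to aos and rho, and markers; Ndfip, Ptp61F, CG15382 and the genes beside the members were named after their values were seen. Gap1 was matched as RasGAP1 through RefSeq synonyms. Members and lists were chosen with earlier results of these data known. The functions computing ratios were tested on 21 h APF levels multiplied by known folds without noise, a check of the arithmetic alone. Alternatives were other pseudocounts, minimums, fold thresholds, and centred or rescaled values. Python 3.11.15, numpy 2.4.6, pandas 2.3.3 and matplotlib 3.10.9 were used.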

Additional observations from a re-analysis of the deposited data

How the results depend on the processing

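With no pseudocount or one of 1 FPKM, with the median ratio (-0.021) subtracted from each gene, and with both stages brought to an equal sum, all 40 recomputed log2 ratios of the 10 genes kept their direction and their side of 2-fold, and the largest move was 0.075. The ratio of ru ranged from -1.98 to -1.95, that of rho from -1.50 to -1.44, and that of edl, the smallest, from 0.0060 to 0.039. Of 112 recomputed counts, 94 were within 1.5 times. At 1.5-fold, 4 of the 10 genes were lower at 40 h APF (ru, rho, aos and vn), where 18.7% of all genes were. So were 4 genes from the receptor to MAP kinase, 4 transcription factor and target genes, 1 further ligand or processing gene and 1 other negative regulator. At this threshold 2 further ligand or processing genes were higher, where 22.6% of all genes were. At 3-fold, 1 of the 10 genes was lower, ru, and 0 transcription factor and target genes, where 631 of the 9828 genes were. Of the genes with an ETS or Pointed domain, 1 was at least 2-fold higher with a pseudocount of 1 FPKM (Ets98B no longer was), and 0 were higher and 0 lower at 3-fold. Over all genes, 2219 were higher and 1835 lower at 1.5-fold, 935 higher and 631 lower at 3-fold, and 871 higher and 465 lower at 2-fold with at least 10 FPKM, against 1450 higher and 1053 lower at 2-fold with at least 1 FPKM; without a minimum, 1678 were lower.

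No paired analysis was possible because each stage has 1 pooled value per gene, and leaving out a replicate could not be done for the same reason. The depth behind each value is unknown, which limits ratios that rest on values near 0, such as that of rho-6.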

Other observations

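Short RNA genes nested in or near the members had extreme values that the members did not share. The gene mir-2a-2, of 72 exon bases within the span of spi, was at 862 FPKM at 40 h and listed at 0 at 21 h APF, while mir-2a-1 and mir-2b-2 beside it were listed at 0 at both stages. The gene tRNA:Glu-CTC-3-3, within the span of ru, was listed at 0 at 40 h and had 672 FPKM at 21 h APF, and tRNA:Glu-CTC-3-5, between ru and rho, was listed at 0 at 40 h and had 918 FPKM at 21 h APF. The other 7 genes of this tRNA cluster were listed at 0 at both stages. A value of 0 in a table without counts can be a failed estimate, so no ratio is given for these genes.

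At the locus that holds aos, dsx-c73A had 622 FPKM at 40 h, against 1.87 FPKM at 21 h APF, and the pigment transporter gene st had 168 FPKM at 40 h, compared with 150.2 FPKM at 21 h APF. Both shared no exon bases with aos, which was lower at 40 h APF.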
